A study of Mus musculus with 12 samples.

Results

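Sox9 loss in adult mouse knee cartilage was sampled at day 14 and at day 7, and the difference between the days is described here from 8 of the 12 libraries of the series. These 8 are the libraries with floxed Sox9 alleles and no floxed Sox8 alleles, chosen by genotype label: mutant and control at each day, in articular cartilage and in growth plate, with 1 library for each combination. Regions were cut by laser from frozen knee sections of mice aged 3 months, and total RNA was sequenced. The remaining 4 libraries, which carry floxed Sox8 and Sox9 alleles at day 14, are used only where named.

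Mutants at day 14 and at day 7 were Sox9fl/fl AcanCreERT2/+, an inducible Cre inserted at the aggrecan gene Acan, so that deletion is limited to cells that express Acan. Controls at day 14 and at day 7 were Sox9fl/fl without Cre. All 8 libraries share the floxed Sox9 alleles, and the file header also names R26tdT/+, a reporter allele, for all 8, which the labels do not. The start of the day count, the floxed exons and the sex of the mice are not stated in the labels. No label says which animal a region came from, so both regions of a genotype and day may come from the same mouse, and agreement between tissues is not an independent repeat. With 1 library per genotype, day and tissue no test was possible, and every difference below is a description of these libraries.

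Sox9 is a transcription factor that chondrocytes need to form and to keep cartilage. It acts with Sox5 and Sox6, binds paired Sox sites near genes of the cartilage matrix such as Col2a1, Acan and the collagen IX and XI genes, and holds back the change from growth plate chondrocyte to hypertrophic cell and bone-forming cell. Sox8 is its close relative. In definitive red cells of the mouse, Sox6 is known for another role, the silencing of the embryonic globin gene Hbb-y.

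Values are the authors' normalised RPKM (NRPKM), reads scaled by transcript length and by sequencing depth, with a lowest listed value of 1. The mutant effect is the mutant minus control difference in log2(NRPKM + 1), a scale that understates differences of low genes, and the day difference is the mutant effect at day 14 minus that at day 7. A gene was counted when its mean over the 8 libraries was at least 10 (4359 of 14712 genes) and its day difference was at least 1 (2-fold) in the same direction in both tissues. Bulk values cannot tell fewer cells of a type from less RNA per cell.

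The articular mutant library of day 14 lists the value 1 for 219 consecutive genes of the table, from Mov10 to Wls, which is the end of chromosome 3 (104794836 to 159938664, mm10). In the other 11 libraries the longest such stretch was 18 to 28 genes. Of the 219 genes, 75 stood at 5 or more in each of the 7 other libraries described here. Col11a1, Cyr61, Sec24d, Gclm and Lef1 lie there, so their articular values at day 14 are not read as expression. The list medians below still include genes of this stretch. Without it the cartilage matrix list held 22 genes in place of 23, and the immediate early list 19 in place of 20. Collagen processing held 31 in place of 32, and glycosaminoglycan synthesis 16 in place of 17. AC087541.1, a small RNA gene, held 32.8 to 45.1% of the summed values of each library, and the growth plate mutant library of day 14 had the highest sum (1350280). The median day difference over all 4359 genes was −0.01 in articular cartilage and −0.36 in growth plate, so the growth plate shift has to be read beside each growth plate value; scaling to the median ratio over 10100 genes moved these medians to 0.05 and 0.02. The tissues could be told apart by Prg4, the lubricin gene of the joint surface. It read 9137 (mutant, day 14), 24884 (control, day 14), 10362 (mutant, day 7) and 24374 (control, day 7) in articular cartilage and at most 36.4 in growth plate. Col1a1, the collagen I gene of bone and fibrous tissue, reached 2171 to 16508 in the growth plate libraries. It did not separate the tissues, since its articular values, given below, overlapped this range.

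The targeted gene kept a similar level at both days in articular cartilage and was lower in the growth plate mutant at day 14. Sox9 (chromosome 11, 112782224 to 112787760, mm10) had in articular cartilage 309 in the mutant and 349 in the control at day 14, and 304 in the mutant and 408 in the control at day 7. In growth plate it had 148 in the mutant and 335 in the control at day 14, and 236 in the mutant and 314 in the control at day 7. The mutant stood below its control in all 4 pairs, by a log2 difference of 0.17 to 1.17, and the day difference was 0.25 in articular cartilage and −0.76 in growth plate, that is, of opposite sign. Reads from any exon count towards a value, including those of a recombined allele.

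Sox8 (chromosome 17, 25565892 to 25570686) stood in the articular mutant at 1.63 against 17.8 in the control at day 14, and at 5.16 against 23.2 at day 7. In the growth plate mutant it stood at 4.93 against 21.7 in the control at day 14, and at 6.71 against 29.0 at day 7. The mutants of both days lay below all 4 controls without overlap, and the day difference was −0.87 in articular cartilage and 0.02 in growth plate.

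Sox6 was lower at day 14 than at day 7 with and without Cre. Sox6, a partner factor (chromosome 7, 115470872 to 116038796) had in articular cartilage 16.5 in the mutant and 13.2 in the control at day 14, and 44.0 in the mutant and 54.8 in the control at day 7. Its growth plate level was 7.71 in the mutant and 11.5 in the control at day 14, and 100.1 in the mutant and 45.7 in the control at day 7. All 4 libraries of day 14 therefore lay below all 4 of day 7, the controls included, with control differences between days of −1.97 in articular cartilage and −1.91 in growth plate. Its day difference was 0.61 in articular cartilage and −1.63 in growth plate. Sox5 ranged from 6.66 to 21.03 over the 8 libraries, with day differences of 0.52 and −0.14. The day differences of Sox9, Sox5 and Sox6 were above 0 in articular cartilage and below 0 in growth plate. The Acan locus holds the Cre insertion, so its level is no independent readout, and it had day differences of −0.22 and 0.84.

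**Figure D1:**
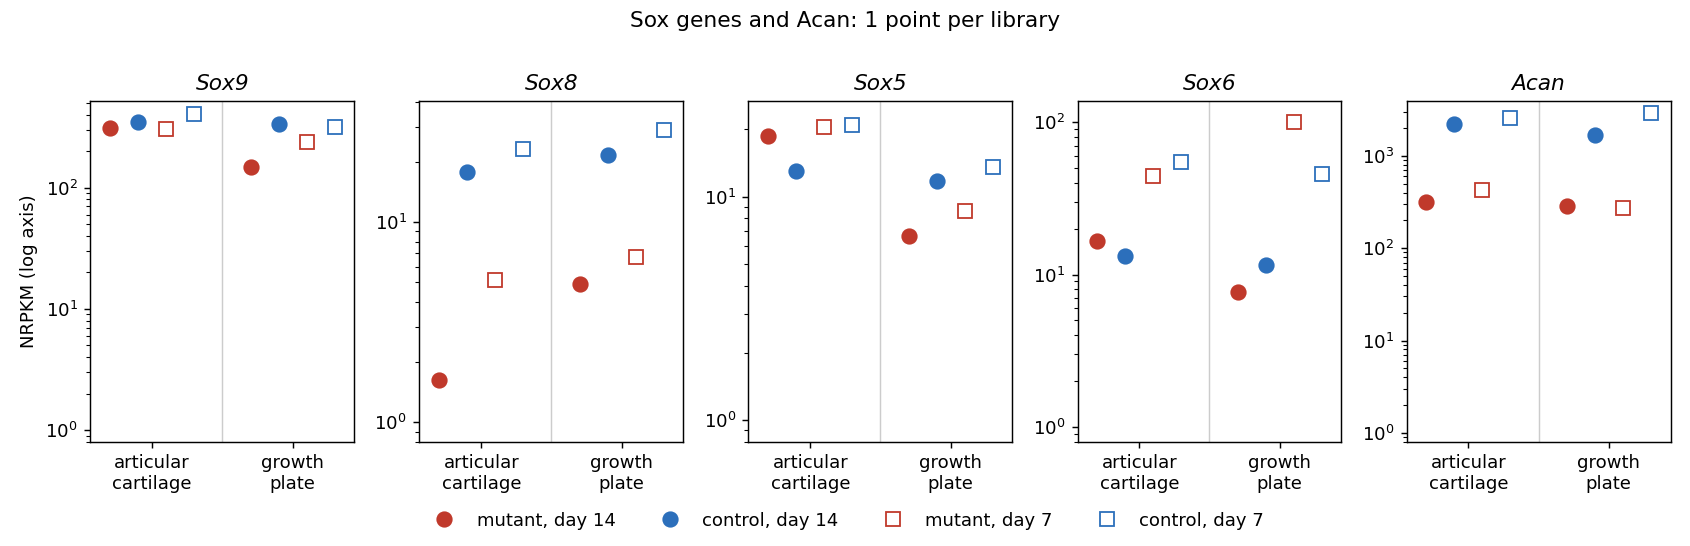
NRPKM (log axis) of Sox9, Sox8, Sox5, Sox6 and Acan, with 1 point per library: filled circles day 14, open squares day 7, red mutant, blue control. Sox8 and Acan separate mutants from controls at both days, while Sox6 separates the days, with 7.71 to 16.5 at day 14 and 44.0 to 100.1 at day 7.

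The cartilage matrix genes were already low in the mutants at day 7, and 0 of them passed 2-fold in the same direction in both tissues between the days (1.15% of all genes were higher and 1.58% lower). Of 27 listed genes 25 were in the table and 23 had a mean of at least 10. In growth plate 20 of the 23 were at least 2-fold lower in the mutant than in the control at day 14 (7.2% of all genes) and 19 at day 7 (5.07% of all genes), 19 of them at both days. In articular cartilage 9 of the 22 without Col11a1 were lower at day 14 (5.16% of all genes; 167 in place of 225 genes without the end of chromosome 3) and 10 at day 7 (2.68% of all genes), 8 of them at both days. The median mutant effect of the list was −0.89 at day 14 and −0.85 at day 7 in articular cartilage, and −2.15 at day 14 and −2.68 at day 7 in growth plate. The median day difference was 0.06 and 0.43, beside −0.01 and −0.36 over all genes.

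In growth plate the fibrillar and fibril-associated collagens were less far below their control at day 14 than at day 7. Col2a1, the main cartilage collagen, had 3090 in the growth plate mutant and 13921 in the control at day 14, and 1547 in the mutant and 21242 in the control at day 7. Col9a3, a chain of collagen IX, had 245 in the mutant and 1093 in the control at day 14, and 110 in the mutant and 2334 in the control at day 7. Matn3, a matrilin that links collagen fibrils, had 40.9 in the mutant and 581 in the control at day 14, and 12.3 in the mutant and 853 in the control at day 7. For each of these 3 genes the mutant was higher and the control lower at day 14 than at day 7, and mutants and controls did not overlap. The growth plate day differences were 1.61 for Col2a1, 2.25 for Col9a3, 2.21 for Matn3, 2.10 for Col9a2, 1.73 for Col9a1 and 1.46 for Col11a2. In articular cartilage the same genes had day differences of 0.48, 0.11, 0.00, 0.06, 0.34 and 0.14, with Matn3 listed at 1 in all 4 libraries.

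Chad, chondroadherin, a leucine-rich repeat protein that binds collagen and integrin, went the other way in growth plate. It had 322 in the growth plate mutant and 2877 in the control at day 14, and 1137 in the mutant and 1180 in the control at day 7, a day difference of −3.10. In articular cartilage it had 1681 in the mutant and 5799 in the control at day 14, and 2978 in the mutant and 5815 in the control at day 7, a day difference of −0.82. The mutants of day 14 were the lowest library of each tissue. Fmod, fibromodulin, was the 1 matrix gene past 2-fold higher in articular cartilage, with 105 in the mutant and 19.0 in the control at day 14, and 45.0 in the mutant and 46.2 in the control at day 7. Comp, a cartilage matrix glycoprotein, had day differences of 0.10 and 0.14, and Ucma, a mineralisation inhibitor of upper zone chondrocytes, 0.02 and −0.78.

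**Figure D2:**
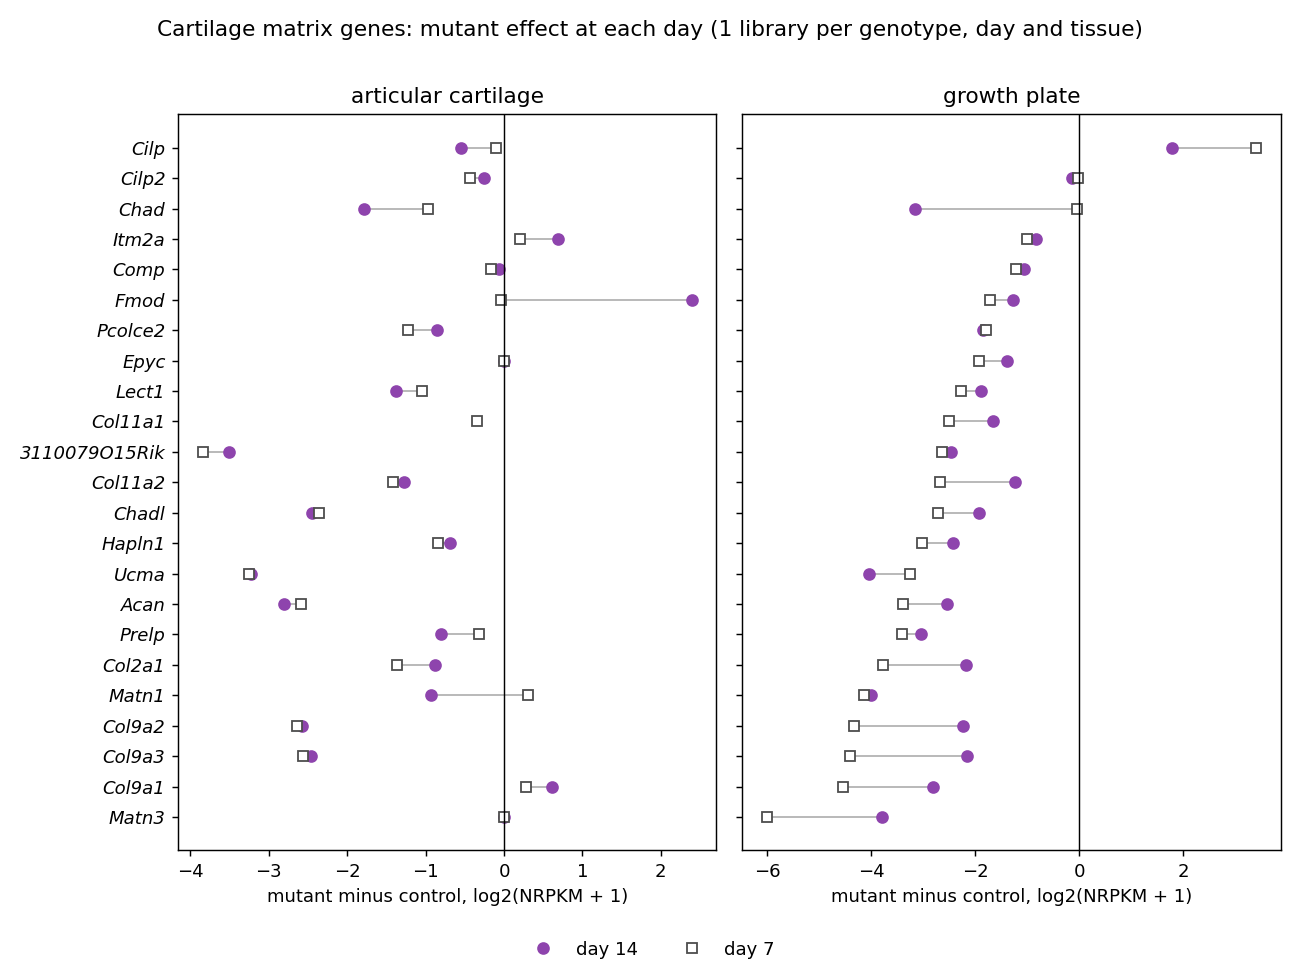
Mutant minus control difference in log2(NRPKM + 1) for the 23 cartilage matrix genes with a mean of at least 10, in articular cartilage (left) and growth plate (right), with a filled circle for day 14 and an open square for day 7; the line joins the 2 days. The articular value of Col11a1 at day 14 is left out because it lies at the end of chromosome 3. In growth plate Col9a3, Matn3 and Col9a2 lie furthest to the right of their day 7 value, and Chad furthest to the left.

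Col10a1, the collagen of hypertrophic chondrocytes, was low in the mutants at both days. It had in articular cartilage 269 in the mutant and 3045 in the control at day 14, and 358 in the mutant and 4329 in the control at day 7. Growth plate levels stood at 71.7 in the mutant and 5111 in the control at day 14, and 48.0 in the mutant and 3027 in the control at day 7. Mutants lay far below controls at both days, and the day differences were 0.10 and −0.19. Of 15 prehypertrophic and hypertrophic genes 1 passed 2-fold lower in both tissues (1.58% of all genes), Mmp13, a collagenase of hypertrophic cartilage and bone, at −1.28 and −1.55. Day differences below 0 were found for 10 of the 15 in articular cartilage and 14 in growth plate, and the medians were −0.14 and −0.64, beside −0.01 and −0.36 over all genes.

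In growth plate several hedgehog pathway genes had day differences past 2-fold lower. Of 13 genes for hedgehog, PTHrP and FGF signalling, 8 had a growth plate day difference of −1 or less (13.7% of all genes were lower there), 0 had one in articular cartilage (6.22% of all genes), and the medians were −0.25 and −1.06, beside −0.01 and −0.36 over all genes. In articular cartilage 9 of the 13 had a day difference below 0, where the median over all genes was −0.01. There 4 were 2-fold lower than control at day 14 (5.16% of all genes) and 1 at day 7 (2.68% of all genes). Ptch1, the hedgehog receptor and itself a target of the pathway, had 23.7 in the growth plate mutant and 129 in the control at day 14, and 82.2 in the mutant and 78.1 in the control at day 7. Hhip, a hedgehog-binding inhibitor, had 3.86 in the growth plate mutant and 33.6 in the control at day 14, and 13.3 in the mutant and 22.0 in the control at day 7. Ihh, the ligand made by prehypertrophic chondrocytes, had 11.8 in the growth plate mutant and 86.1 in the control at day 14, and 26.9 in the mutant and 72.9 in the control at day 7. In growth plate the day 14 mutant was the lowest library for each of the 3 genes. Their day differences in articular cartilage were −0.07, −0.33 and −0.68, in growth plate −2.47, −2.15 and −1.36. Gli1, a transcription factor induced by hedgehog signals, had −0.45 and 0.04. Whether the tissues differ could not be tested with 1 library each.

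The mutants differed from their controls in both tissues at each day. At day 14, 153 genes were 2-fold higher (3.51%) and 72 lower (1.65%) in both tissues, with 7.11% higher in articular cartilage and 8.33% in growth plate. At day 7, 193 were higher (4.43%) and 56 lower (1.28%) in both tissues, with 7.69% higher in articular cartilage and 14.7% in growth plate. The day differences were as follows. In articular cartilage 135 genes (3.1%) were at least 2-fold higher and 271 (6.22%) at least 2-fold lower; in growth plate 254 (5.83%) were higher and 596 (13.7%) lower. In both tissues 50 genes (1.15%) were higher and 69 (1.58%) lower, and without the end of chromosome 3, where 4 of the lower genes lie, the counts were 50 and 65. The 50 are 37.0% of the articular and 19.7% of the growth plate list of higher genes, and the 69 are 25.5% and 11.6% of the lists of lower genes. A further 12 genes (0.275%) were 2-fold higher in articular cartilage and 2-fold lower in growth plate, and 32 (0.734%) the reverse. Controls alone, with no Cre, differed 2-fold in the same direction in both tissues in 49 genes higher (1.12%) and 12 lower (0.275%) at day 14, against 130 higher (2.98%) and 32 lower (0.734%) in the mutants. On the higher side Fxyd2 was just outside the threshold (0.94 and 1.33); Uqcr10 was just inside on the lower side (−1.02 and −1.08) and Egr3 just outside (−0.99 and −1.77).

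A day difference can come from the mutants or from the controls. Of the 50 higher genes, the mutants themselves were 2-fold higher at day 14 in both tissues in 39, and the controls 2-fold lower in both in 1. Of the 69 lower genes the mutants were 2-fold lower in both tissues in 12, the controls 2-fold higher in both in 13, and neither held in 44. With controls that differed by less than 1.5-fold in both tissues, 22 higher genes (0.505%) and 3 lower genes (0.0688%) remained, and these are called carried by the mutants below. The 3 lower genes are Hbb-bh1, Nr4a1 and Id4. Of the 22 higher genes 21 are small RNAs and 1, Sv2c, is protein-coding.

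**Figure D3:**
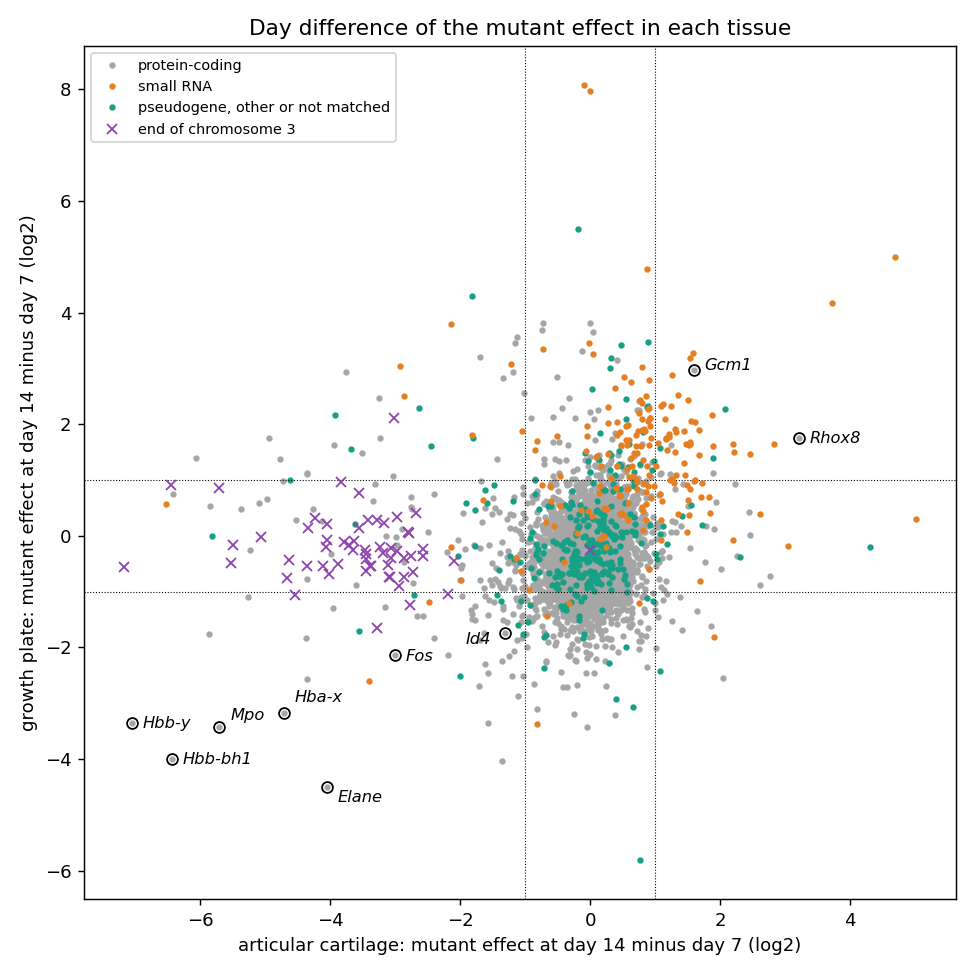
Day difference of the mutant effect (log2) in articular cartilage against growth plate for the 4359 genes with a mean of at least 10; grey protein-coding, orange small RNA, green other, purple crosses the end of chromosome 3, and dotted lines mark 2-fold. The embryonic globin genes, Mpo and Elane lie at the lower left, Rhox8 and Gcm1 at the upper right among small RNAs, and 58 of the 59 purple crosses lie left of the dotted line.

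The embryonic globins were among the genes with the largest shared differences and were present in the day 7 mutants and near or at the lowest value at day 14. Hbb-y and Hbb-bh1 encode beta-like chains and Hba-x the alpha-like chain of embryonic haemoglobin, which the first red cells of the yolk sac make. The 250 bases before the start of Hbb-y and of Hba-x are shown (RefSeq, GRCm38.p6, 5′ to 3′ on the strand of the gene) because Sox proteins, Sox6 among them, bind such sites at globin genes; capitals mark the Sox motif searched. The motif was spelled AACAAAG, or else AACAATG, or else ATCAAAG, or else ATCAATG, or else TACAAAG, or else TACAATG, or else TTCAAAG, or else TTCAATG, on either strand, and 21.8% of 32851 windows of this length held it.
Hbb-y, chr7:103853208-103853457, minus strand: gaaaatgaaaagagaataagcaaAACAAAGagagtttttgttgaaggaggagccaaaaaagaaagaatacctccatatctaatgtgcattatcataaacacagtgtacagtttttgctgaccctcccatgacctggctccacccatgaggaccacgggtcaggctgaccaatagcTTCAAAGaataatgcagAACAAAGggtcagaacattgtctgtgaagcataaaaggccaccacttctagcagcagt
Hba-x, chr11:32276350-32276599, plus strand: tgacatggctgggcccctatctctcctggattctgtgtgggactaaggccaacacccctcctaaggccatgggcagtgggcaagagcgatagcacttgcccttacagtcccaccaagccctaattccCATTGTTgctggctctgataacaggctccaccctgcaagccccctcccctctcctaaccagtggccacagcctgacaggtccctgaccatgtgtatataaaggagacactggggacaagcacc
The Hbb-y window held 3 matches and the Hba-x window 1; the windows of Nr4a1 and Sv2c, which are carried by the mutants, held 0. Gene positions in the text are those of GENCODE, whose starts can differ from the RefSeq starts used for the windows. The windows of Hbb-y and Hba-x therefore overlap the gene positions given below, and that of Nr4a1 lies inside them. A match is only a run of letters, and binding was not measured.

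Hbb-y (chromosome 7, 103851749 to 103853216) was listed in articular cartilage at 1 in the mutant and in the control at day 14, and had 555 in the mutant and 3.20 in the control at day 7. In growth plate it was listed at 1 in the mutant and in the control at day 14, and had 106 in the mutant and 9.52 in the control at day 7. Only the 2 mutant libraries of day 7 were high among these 8, and the control libraries of day 7 held low values. The day difference was −7.05 in articular cartilage and −3.35 in growth plate.

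Hbb-bh1 (chromosome 7, 103841637 to 103843164) had 172 in the articular and 38.7 in the growth plate mutant of day 7, and 1 to 1.48 in the other 6 libraries, with day differences of −6.44 and −4.00. Hba-x (chromosome 11, 32276400 to 32278116) had in articular cartilage 1 in the mutant and 2.32 in the control at day 14, and 262 in the mutant and 15.6 in the control at day 7. The growth plate libraries held 1 in the mutant and 1.43 in the control at day 14, and 90.8 in the mutant and 11.3 in the control at day 7. For Hba-x, too, the mutants of day 7 were high, the controls of day 7 intermediate, and all libraries of day 14 near the lowest value.

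Red cell markers were also highest in the day 7 mutants, but unlike the embryonic globins they were present at day 14. The summed level of 17 erythroid markers in articular cartilage was 277 in the mutant and 666 in the control at day 14, and 695 in the mutant and 222 in the control at day 7. The growth plate sum was 391 in the mutant and 146 in the control at day 14, and 997 in the mutant and 322 in the control at day 7. The articular control of day 14 thus had nearly the erythroid sum of the articular mutant of day 7, with Hbb-y at 1 in that control and 555 in that mutant. Of 7 erythroid genes with a mean of at least 10, 7 had day differences below 0 in articular cartilage and 6 in growth plate. Their medians were −2.87 and −0.30, beside −0.01 and −0.36 over all genes, so the growth plate median did not lie below that of all genes. Of these 7, 1 passed 2-fold in both tissues (1.58% of all genes), Car2, which is also counted among the osteoclast genes below. With no filter on the mean 6 of 17 passed, and 271 of all 14712 genes were lower in both tissues. Among the 6 was Slc4a1, the anion exchanger of red cells, at −4.18 and −1.43. Hba-a1, an adult alpha globin gene, had 74.3 in the articular mutant and 187 in the control at day 14, and 206 in the mutant and 63.9 in the control at day 7; its growth plate day difference was −0.02. Reads of near-identical adult globin copies may be split by the counting.

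Of genes known from yolk sac or liver 6 are given as examples chosen after their values were seen. Afp, alpha-fetoprotein, had 60.1 in the articular and 13.4 in the growth plate mutant of day 7 and was listed at 1 in the other 6 libraries. In the articular mutant of day 7 the apolipoprotein genes Apoa1, Apob and Apoa2 had 13.5, 5.64 and 5.44, and Ttr, transthyretin, had 8.46, while each stood between 1 and 1.73 in the other articular libraries. In the growth plate mutant of day 7 the values were near the lowest listed value, 1.52 for Apoa1, 1.17 for Apob and 1.22 for Ttr, except 3.07 for Apoa2. Alb, the albumin gene of adult liver, was at 1 in all but the growth plate control of day 14. The source of these transcripts was not tested. In the libraries with floxed Sox8 and Sox9 alleles, all of day 14, Hbb-y had 121 in the articular and 21.2 in the growth plate mutant and was at 1 in both controls, so presence in a mutant was not limited to day 7 in this series. Sox6 in the same 4 libraries had 91.6 and 94.5 in the articular and growth plate mutants and 28.8 and 26.8 in their controls.

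**Figure D4:**
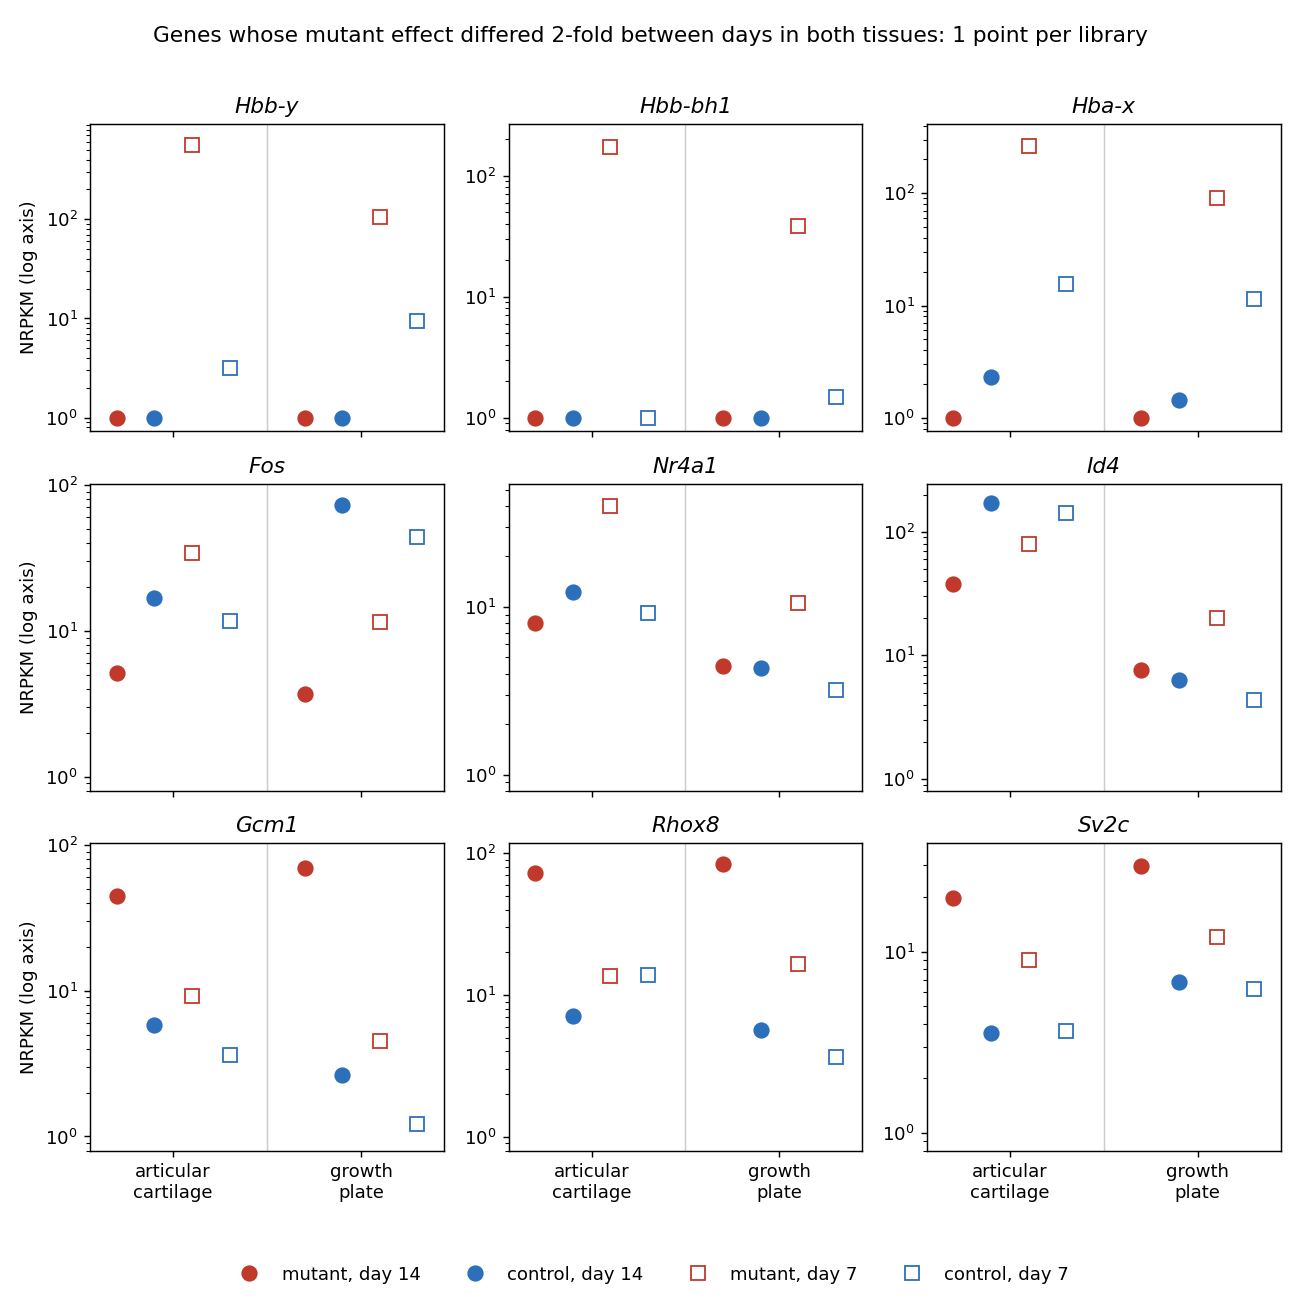
NRPKM (log axis) of 9 genes with a day difference of at least 2-fold in both tissues, 1 point per library: filled circles day 14, open squares day 7, red mutant, blue control. In the upper row the day 7 mutants stand above the other libraries of their tissue; in the lower row the day 14 mutants do.

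Immediate early genes, which cells switch on within minutes of a stimulus or of handling, had 3 of 20 members past 2-fold lower in both tissues (1.58% of all genes), Fos, Egr1 and Nr4a1. The list medians were −0.58 and −0.60, beside −0.01 and −0.36 over all genes. With the day 14 controls averaged with those of the Sox8 and Sox9 genotype, Fos no longer passed. Fos, an AP-1 subunit, had in articular cartilage 5.12 in the mutant and 16.8 in the control at day 14, and 34.3 in the mutant and 11.8 in the control at day 7. In growth plate it had 3.71 in the mutant and 73.2 in the control at day 14, and 11.5 in the mutant and 43.7 in the control at day 7. The day 14 mutants were the lowest library of each tissue; at day 7 the mutant lay above its control in articular cartilage and below it in growth plate. The day differences of Fos were −3.01 and −2.14.

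Nr4a1 (chromosome 15, 101254269 to 101274795), an orphan nuclear receptor, had in articular cartilage 8.03 in the mutant and 12.3 in the control at day 14, and 39.8 in the mutant and 9.16 in the control at day 7. Its growth plate level was 4.42 in the mutant and 4.33 in the control at day 14, and 10.5 in the mutant and 3.20 in the control at day 7. The day 7 mutant was the highest library of each tissue, and the day differences were −2.57 and −1.43. Egr1, a zinc finger factor, had day differences of −1.71 and −2.69. Jun, the partner of Fos, had 0.56 and 0.61, and Junb −0.46 and −1.66, so the group did not move as a whole.

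Id4 (chromosome 13, 48261228 to 48266026), an inhibitor of helix-loop-helix factors and a target of BMP signals, was also carried by the mutants. In articular cartilage it had 37.7 in the mutant and 170 in the control at day 14, and 79.2 in the mutant and 142 in the control at day 7. Growth plate levels stood at 7.61 in the mutant and 6.34 in the control at day 14, and 19.96 in the mutant and 4.32 in the control at day 7. The mutants differed between days in the same direction in both tissues, but the articular mutants lay below their controls and the growth plate mutants above theirs. The day differences were −1.31 and −1.75. Bmp3, a BMP family member made in bone, had −1.83 and −1.50, of which part came from the controls: 19.7 at day 14 and 5.25 at day 7 in the articular controls, and 35.8 and 13.2 in the growth plate controls.

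Bone genes were less far above their control in the mutants of day 14 than in those of day 7, and for the collagen I genes the controls held more at day 14. Of 21 osteoblast and osteocyte genes 4 passed 2-fold lower in both tissues (1.58% of all genes) and 0 higher (1.15%), with medians of −0.52 and −0.92, beside −0.01 and −0.36 over all genes; after median ratio scaling 2 of them passed. Col1a1 had in articular cartilage 2604 in the mutant and 2091 in the control at day 14, and 2548 in the mutant and 729 in the control at day 7. The growth plate libraries held 16508 in the mutant and 6678 in the control at day 14, and 12168 in the mutant and 2171 in the control at day 7. The mutants exceeded their controls in all 4 pairs, the controls of day 14 exceeded those of day 7, and the day differences were −1.49 and −1.18. Col1a2, its partner chain, had −1.56 and −1.15, and Phex, an osteocyte peptidase, −1.20 and −2.51. Tnn, tenascin-W of bone-forming surfaces, has a mean under 10 and ran the other way, with 12.6 in the articular mutant and 1 in the control at day 14, and 11.9 in the mutant and 4.15 in the control at day 7, for day differences of 1.44 and 1.73.

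Blood cell genes were among the named lower genes. In articular cartilage the controls of neutrophil genes were higher at day 14 by a median of 3.19, and their mutants differed by a median of −1.63. For macrophage genes these medians were 1.32 and 0.16. Elane, neutrophil elastase, had in articular cartilage 44.1 in the mutant and 84.99 in the control at day 14, and 27.7 in the mutant and 2.30 in the control at day 7. In growth plate it had 7.03 in the mutant and 3.15 in the control at day 14, and 87.1 in the mutant and 1 in the control at day 7. In articular cartilage the control of day 14 was the highest library, and in growth plate the mutant of day 7. The day differences were −4.05 and −4.51 for Elane and −5.71 and −3.43 for Mpo, myeloperoxidase. Laptm5, a lysosomal protein of blood cells, had −2.40 and −1.83, Lyz2, lysozyme of myeloid cells, −1.26 and −2.15, and Ucp2, a mitochondrial carrier abundant in such cells, −2.19 and −2.14. For Elane, Mpo, Laptm5, Lyz2 and Ucp2 the articular mutants differed between days by −0.32 to 0.65, and the articular controls by 1.32 to 5.92. In growth plate the mutants differed by −3.46 to −0.52 and the controls by 0.78 to 1.63.

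The summed level of 17 neutrophil markers in articular cartilage was 447 in the mutant and 1286 in the control at day 14, and 877 in the mutant and 148 in the control at day 7. For growth plate the sum was 471 in the mutant and 60.3 in the control at day 14, and 948 in the mutant and 68.3 in the control at day 7. The highest library was the control of day 14 in articular cartilage and the mutant of day 7 in growth plate. In articular cartilage 6 of the 17 neutrophil genes were at 1 in the control of day 7 and 0 in that of day 14. Of all 14712 genes, 2430 and 1809 were at 1 in these controls. Of the genes with a mean of at least 10, 5 of 9 neutrophil genes, 3 of 9 macrophage genes and 4 of 8 osteoclast genes were 2-fold lower in both tissues (1.58% of all genes), the osteoclast count being 1 after median ratio scaling. The other 4 neutrophil genes had growth plate day differences above 0, 1 of them past 2-fold, with S100a8, a calcium-binding protein of neutrophils, at 0.66. The medians were −4.77 and −1.09 for neutrophil genes, −1.27 and −0.90 for macrophage genes and −2.25 and −1.05 for osteoclast genes. Their part in the other differences was not tested. Car2 and Car3, carbonic anhydrases, had −5.87 and −1.77, and −4.36 and −2.57. Hist1h2bn, a replication-dependent histone gene with near-identical copies, had −4.38 and −1.83. Between days the articular controls of Car2, Car3 and Hist1h2bn differed by 3.36, 4.21 and 3.55, and their mutants by −2.51, −0.15 and −0.82. In the articular control of day 7, 19 of 35 cell cycle genes were at 1, against 0 to 3 in the other 7 libraries. Over all 14712 genes, 2430 were at 1 in that control and 1299 to 2823 in the other 7 libraries.

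Small RNAs made up most of the genes higher at day 14. Of the 50 genes 40 were small RNAs, 7 protein-coding (0.182% of protein-coding genes, against 1.53% lower) and 3 of other kinds. Over 194 small RNAs the median day difference was 0.76 in articular cartilage and 1.33 in growth plate, against −0.02 and −0.40 over 3846 protein-coding genes, and 142 were above 0 in both tissues. The mutants of day 14 differed from those of day 7 by a median of 1.11 and 1.54, the controls by 0.23 and 0.16. The share of small RNAs in the summed values moved with this: in articular cartilage 52.3% in the mutant and 44.6% in the control at day 14, and 44.7% in the mutant and 44.4% in the control at day 7; in growth plate 62.2% in the mutant and 52.1% in the control at day 14, and 52.6% in the mutant and 56.1% in the control at day 7. Both day 14 mutants had the highest share of their tissue. Total RNA libraries carry such short transcripts with varying yield, and the part of that yield was not tested. Snora23, which guides a modification of ribosomal RNA and is given as an example chosen after its values were seen, had 340 in the articular mutant and 155 in the control at day 14, and 111 in the mutant and 163 in the control at day 7. Its growth plate level was 516 in the mutant and 130 in the control at day 14, and 137 in the mutant and 130 in the control at day 7.

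The 7 protein-coding genes higher at day 14 included Rhox8, Gcm1, Col14a1, Il17b, Tcea3 and Sv2c. Rhox8 (chromosome X, 37874778 to 37878944), a homeobox gene of a cluster known from reproductive tissue, had in articular cartilage 72.8 in the mutant and 7.08 in the control at day 14, and 13.6 in the mutant and 13.8 in the control at day 7. Growth plate levels stood at 83.9 in the mutant and 5.64 in the control at day 14, and 16.6 in the mutant and 3.66 in the control at day 7. Both mutants of day 14 lay above all other libraries, and the day differences were 3.21 and 1.76. In the libraries with floxed Sox8 and Sox9 alleles Rhox8 had 28.7 and 15.3 in the articular and growth plate mutants. Their controls had 10.4 and 11.2.

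Gcm1 (chromosome 9, 78051924 to 78065624), a transcription factor of placental trophoblast, had in articular cartilage 44.4 in the mutant and 5.82 in the control at day 14, and 9.27 in the mutant and 3.65 in the control at day 7. The growth plate libraries held 70.1 in the mutant and 2.65 in the control at day 14, and 4.52 in the mutant and 1.21 in the control at day 7. Both mutants of day 14 were highest, the mutant exceeded its control in all 4 pairs, and the day differences were 1.59 and 2.96. The libraries with floxed Sox8 and Sox9 alleles, all of day 14, held little Gcm1. It had 2.67 and 2.65 in the articular and growth plate mutants, and 1.58 and 1.82 in their controls.

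Sv2c (chromosome 13, 95954594 to 96132577), a synaptic vesicle protein in nerve cells, had in articular cartilage 19.8 in the mutant and 3.57 in the control at day 14, and 9.003 in the mutant and 3.67 in the control at day 7. In growth plate it had 29.8 in the mutant and 6.81 in the control at day 14, and 12.1 in the mutant and 6.25 in the control at day 7. Its mutants exceeded controls at both days without overlap and more so at day 14, with controls nearly level between days, and the day differences were 1.09 and 1.13. In the libraries with floxed Sox8 and Sox9 alleles Sv2c had 5.90 and 5.42 in the articular and growth plate mutants. Their controls had 4.26 and 5.47. Il17b, a cytokine gene, had 3.05 in the growth plate mutant and 38.6 in the control at day 14, and 3.06 in the mutant and 84.9 in the control at day 7, so its growth plate difference of 1.12 came with the controls. Tcea3, a transcription elongation factor, had day differences of 1.22 and 1.10. With 5 in place of 1 added before the logarithm, only Rhox8 and Gcm1 of the 7 remained past 2-fold in both tissues. The same genes alone remained when the day 14 controls were averaged with those of the Sox8 and Sox9 genotype.

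Fibroblast-related genes differed in both directions. Col14a1, a collagen of fibrous tissue, had 74.1 in the articular mutant and 6.91 in the control at day 14, and 68.7 in the mutant and 16.5 in the control at day 7. Its growth plate level was 5.20 in the mutant and 1 in the control at day 14, and was listed at 1 in the mutant and in the control at day 7. The articular day difference of 1.25 thus came from the controls and the growth plate one of 1.63 from the mutants. Sfrp2, a secreted Wnt modulator with a mean under 10, had 5.05 in the articular and 30.2 in the growth plate mutant of day 14 and at most 1.39 in the other 6 libraries, with day differences of 1.86 and 3.96. In the libraries with floxed Sox8 and Sox9 alleles Sfrp2 was listed at 1 in both mutants. It had 25.6 in the articular and 1 in the growth plate control there. The 18 fibroblast and tendon markers summed in articular cartilage to 8031 in the mutant and 5075 in the control at day 14, and to 6362 in the mutant and 4247 in the control at day 7. In growth plate the sums were 18266 in the mutant and 7442 in the control at day 14, and 13261 in the mutant and 2827 in the control at day 7. The mutant sum exceeded that of its control in all 4 pairs. Col1a1, given above with the bone genes, is among these markers and made up most of each growth plate sum. The sums therefore partly repeat its values. Of 13 of these markers with a mean of at least 10, 1 was 2-fold higher (1.15% of all genes) and 1 lower (1.58%) in both tissues, with medians of 0.39 and −0.16, beside −0.01 and −0.36 over all genes.

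Other list medians, in the plot of list medians, are read beside −0.01 in articular cartilage and −0.36 in growth plate over all genes. The 32 genes of collagen processing and secretion had medians of 0.19 and 0.14, the 23 genes of hypoxia and glycolysis 0.08 and 0.35, the 34 nuclear-encoded respiratory chain genes −0.01 and −0.15, the 10 heat shock genes −0.03 and −0.09, and the 17 genes of glycosaminoglycan synthesis 0.04 and 0.22. The 9 chondrocyte transcription factors had 0.06 and −1.05, with 5 lower in growth plate (13.7% of all genes), among them Runx1 at −1.51 and Runx2 at −1.12. The 17 articular and superficial zone genes had 0.04 and −0.98, with 8 lower in growth plate (13.7% of all genes) and 1, Tnc, tenascin-C, lower in both tissues (1.58% of all genes; −1.06 and −1.10).

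**Figure D5:**
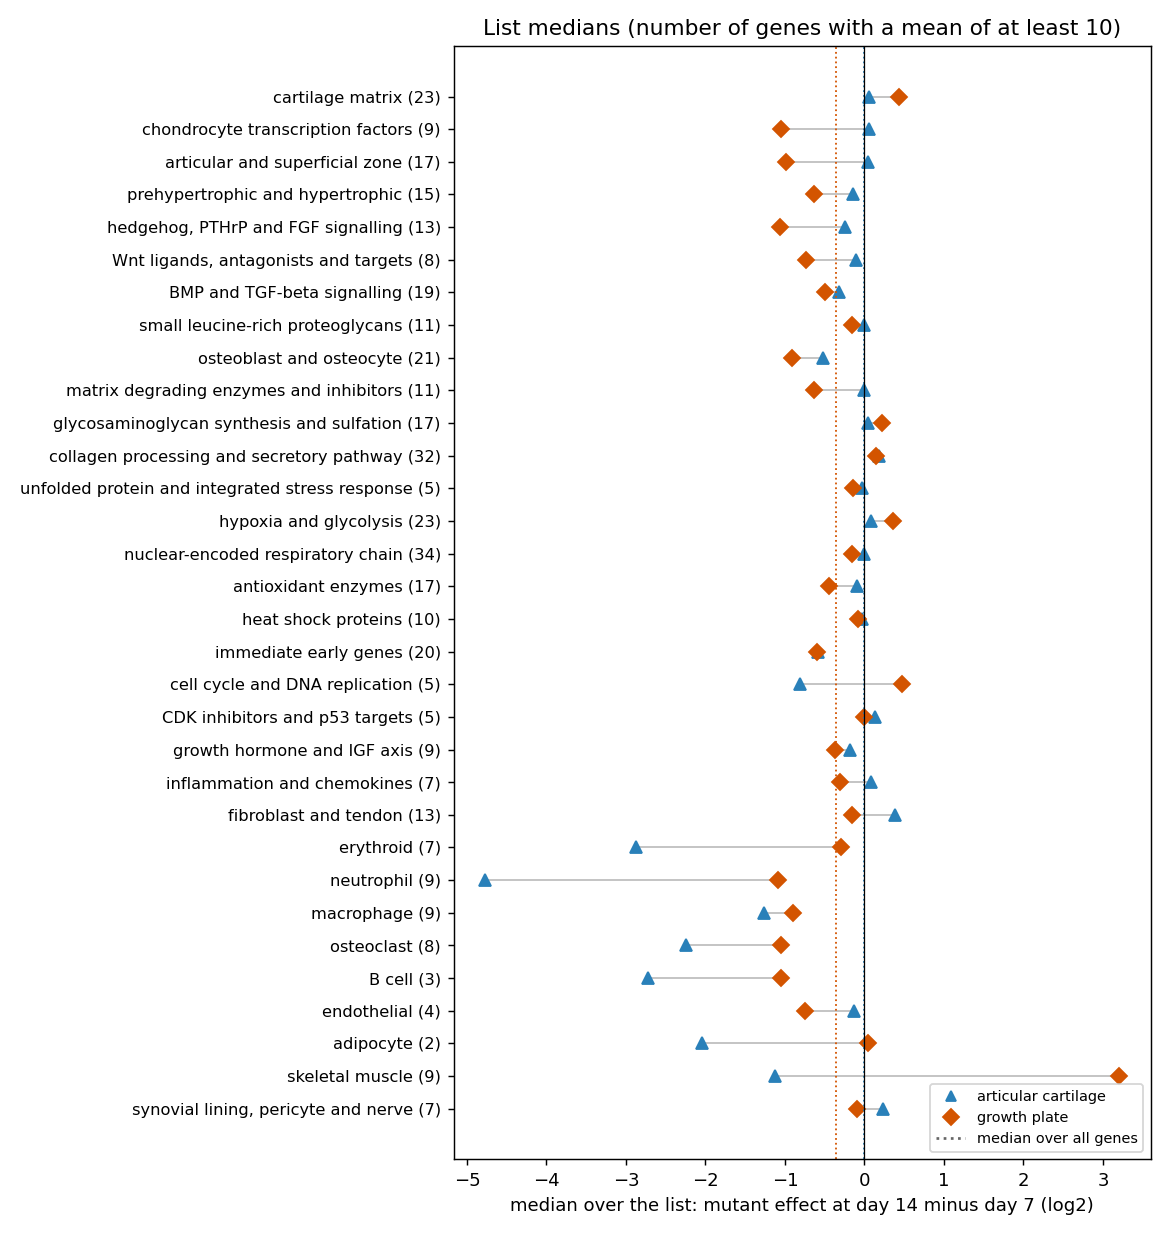
Median day difference of the mutant effect (log2) for each of 32 gene lists with members of mean 10 or more, whose number is in brackets; triangles articular cartilage, diamonds growth plate, dotted lines the median over all genes of each tissue. Blood cell lists lie to the left in articular cartilage, and skeletal muscle is the list with the widest gap between tissues, −1.13 against 3.20.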

How the data were processed

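Frozen knee sections of adult mice were cut by laser and 10 ng of total RNA per region went into stranded total RNA libraries made with the SMARTer Pico kit, per the labels' protocols. The authors deposited NRPKM values, a normalised RPKM per the file header, for 14712 genes; the build is mm10 per the submitters' processing notes, and the aligner, counter, annotation, filters and normalisation were not given in the sources used here. Read depth is unknown, so counting error cannot be given, and with 1 library per genotype, day and tissue no test was run and no p-value is given.

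From these values log2(NRPKM + 1), its mutant minus control difference at each day and the difference of the days were computed with Python 3.11.15, numpy 2.4.6 and pandas 2.3.3, and figures with matplotlib 3.10.9; the calculation was tested on simulated data. Genes with a mean of at least 10 over the 8 libraries were counted at 2-fold. Gene identifiers were matched to GENCODE M21 for kind and mm10 position (14293 of 14712). Small RNAs and pseudogenes were counted by GENCODE kind. For the rankings of named genes they were left out by kind or by a pattern in the symbol. Promoters were the 250 bases before the start in RefSeq.

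Named genes were Sox9, Sox8, Sox5, Sox6 and Acan, the 10 per direction with the largest smaller difference of both tissues, the 8 per direction carried by the mutants, up to 3 per list and the 4 per direction that opposed each other between tissues. Other genes, among them the matrix genes, Hbb-y and Hba-x with their promoters, and the yolk sac genes, were picked with their values in view. The genes, lists and rules were chosen with earlier results of these data known. Of 33 lists 32 had members to describe; keratinocyte markers had 1 of 11 in the table and 0 with a mean of at least 10. Alternatives were another added value, filters, scalings, control libraries and thresholds, gene kind, and, chosen after seeing the data, leaving out the end of chromosome 3. Some genes that the rule names are not reported here.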

Additional observations from a re-analysis of the deposited data

Results flagged for a closer look

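The lists and genes below had day differences of opposite sign in the 2 tissues; the difference between tissues was not tested, since each tissue has 1 library per genotype and day. For 9 skeletal muscle genes the median was −1.13 in articular cartilage and 3.20 in growth plate, and the list's growth plate minus articular difference was 4.33. The summed level of 19 muscle markers was in articular cartilage 623 in the mutant and 768 in the control at day 14, and 45.9 in the mutant and 25.6 in the control at day 7. In growth plate it was 498 in the mutant and 109 in the control at day 14, and 71.6 in the mutant and 103 in the control at day 7. Of the day 14 libraries 3 were thus high in muscle transcripts, the growth plate control being the exception, and the part of muscle caught with the sections was not tested.

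The growth plate minus articular difference was 4.93 for H19, an imprinted long RNA of growing tissue, with day differences of −2.64 and 2.30. It was 6.10 for Hist1h2bm, 6.68 for Hist1h2an and 5.70 for Hist1h2bk, replication-dependent histone genes with near-identical copies, which stood lower in articular cartilage (−3.94, −3.75 and −3.24) and higher in growth plate (2.16, 2.93 and 2.46). Genes of the opposite order were Ccdc3 with a difference of −3.47, Crispld2 with −2.998, F13a1, a clotting factor subunit found in macrophages, with −3.11, and Ly6a, a surface protein of stem and stromal cells, with −4.59.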

How the results depend on the processing

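No paired analysis was possible because the labels number no replicates and each genotype, day and tissue has 1 library. The counts that moved by over 1.5 times were these; the cause was not tested beyond what each setting itself changes. With 5 added in place of 1, 37 genes were lower in both tissues, 339 lower in growth plate and 39 in the controls. With no filter on the mean, 131 were higher and 271 lower in both, 677 and 1376 in articular cartilage, 935 and 2166 in growth plate, 71 carried by the mutants and 112 in the controls. With a mean of at least 50, 17 were higher and 20 lower in both, 36 and 46 in articular cartilage, 77 and 105 in growth plate, 11 carried and 23 in the controls. Quantile scaling left 347 lower in growth plate. Median ratio scaling gave 457 higher and 222 lower in growth plate, 39 lower in both, and a growth plate matrix median of 0.85. Protein-coding genes alone gave 7 higher in both, 57 in articular cartilage and 99 in growth plate, 4 carried and 22 in the controls. Mutants alone, with no control, gave 130 higher and 32 lower in both, 147 lower in articular cartilage, 196 lower in growth plate, and matrix medians of −0.23 and 0.0756; there the macrophage median in articular cartilage was 0.16, the B cell medians 0.77 and 0.26, the articular muscle median 3.74 and Ighm 0.16, all of reversed sign. Pooling the day 14 controls with those of the Sox8 and Sox9 genotype gave 83 higher in both. A 1.5-fold threshold gave 150 higher and 203 lower in both, a 4-fold threshold 3 and 10. Of the named genes, all 7 higher and all 10 lower ones were kept under both scalings. Without controls 3 of 7 and 4 of 10 were kept, and with the pooled day 14 controls 2 of 7 and 9 of 10. Small differences of genes near the value 1 are limited by that floor.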
